A study of Mus musculus with 3 samples.

Results

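This account covers genes that package, remodel and mark chromatin in the seam epithelium of the mouse palate. Members were all probe sets that name 1 gene and whose symbol begins with Hdac, Smarc, Dnmt, Ezh, Cbx, Hmga, Hmgb, Hmgn, Chd, Kat, Sin3 or Rbbp (with the digit or letter of a family member after it). The names select 63 of the 10833 probe sets that name 1 gene, and 44 of 8251 genes. Another 4 probe sets, which name Cbx3, Hmgn2 or Hmgb1 together with pseudogenes or predicted genes, were left out by this rule.

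All RNA came from medial edge epithelium, the layer on the palatal shelf tips that becomes the midline seam, of CF-1 mouse embryos at ED13.5 (embryonic day), and no genotype other than the stock is given. Epithelium was freed with Dispase II and its RNA amplified for all samples, and how many embryos were pooled is not stated. The 0 h array held unfused epithelium for which no culture is described. The 12 h array held fused epithelium from shelves kept together in culture for 12 h after contact, and the 24 h array fused epithelium after 24 h, described as turning from epithelium into mesenchyme. Each time point had 1 array, so values carry no replicate error and no p-value, and precision is limited by the array number. Fusion and time in culture cannot be told apart, nor can fewer cells of a type and less RNA per cell.

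In chromatin, DNA is wound on histones. Histone deacetylases remove acetyl groups and are linked with silencing, acetyltransferases add them, and ATP-driven remodelers of the SWI/SNF, ISWI and CHD families move or evict nucleosomes. DNA methyltransferases, polycomb proteins and chromobox proteins keep genes silent through cell division, and HMG proteins bend DNA or bind nucleosomes, some of them mainly in embryonic and dividing cells. Several of these factors exist as paralogues that occupy the same place in a complex and are thought to be exchanged when cells change state.

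Values are linear signals scaled to a common trimmed mean, and signals under a floor of 13.53 were treated as not measurable. A ratio against an array at the floor is a bound and is written as at least N-fold. Where counts are given, a gene is counted as higher or lower if its ratio was 2-fold or more. Of the 44 members, 36 exceeded the floor on each array and 4 (Chd1l, Chd7, Cbx7 and Hmgb4) on none. The 4 have no ratio. The other 40 genes were above the floor at 0 h, 37 of them also at 12 h and 36 at 24 h.

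The promoters shown here belong to the Smarca and Kat2 paralogues with opposite ratios and to Smarcd2, the member with the highest measured ratio for 24 h over 0 h. Each runs from 250 bases before to 50 bases after a start site, 5′ to 3′ on the gene's strand, from RefSeq (GRCm38.p6), which had entries for 38 of the 44 genes. For Kat2b the first of 2 listed starts is shown. Capitals mark matches, on either strand, to the Sp1 GC box (GGGCGG), to the CCAAT box, to the cyclic AMP response element TGACGTCA or to the E2F site, searched as TTTCCCGC or TTTCGCGC or TTTGCCGC or TTTGGCGC. No 2 different motifs overlapped in these 5 windows.
Smarca4 promoter, chr9:21615919-21616218, plus strand: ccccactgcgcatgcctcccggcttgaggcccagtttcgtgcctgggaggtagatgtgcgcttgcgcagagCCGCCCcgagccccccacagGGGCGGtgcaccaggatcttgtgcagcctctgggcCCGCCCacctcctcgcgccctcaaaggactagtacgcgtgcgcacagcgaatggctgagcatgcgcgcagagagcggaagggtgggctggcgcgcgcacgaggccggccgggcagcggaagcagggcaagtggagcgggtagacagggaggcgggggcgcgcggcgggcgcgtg
Smarca2 promoter, chr19:26604910-26605209, plus strand: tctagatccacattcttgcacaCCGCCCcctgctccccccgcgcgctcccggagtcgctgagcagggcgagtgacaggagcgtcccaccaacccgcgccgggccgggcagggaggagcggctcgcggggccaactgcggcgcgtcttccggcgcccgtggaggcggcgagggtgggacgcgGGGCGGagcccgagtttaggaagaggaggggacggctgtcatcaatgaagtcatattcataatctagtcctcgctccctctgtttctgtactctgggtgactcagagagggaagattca
Kat2a promoter, chr11:100712418-100712717, minus strand: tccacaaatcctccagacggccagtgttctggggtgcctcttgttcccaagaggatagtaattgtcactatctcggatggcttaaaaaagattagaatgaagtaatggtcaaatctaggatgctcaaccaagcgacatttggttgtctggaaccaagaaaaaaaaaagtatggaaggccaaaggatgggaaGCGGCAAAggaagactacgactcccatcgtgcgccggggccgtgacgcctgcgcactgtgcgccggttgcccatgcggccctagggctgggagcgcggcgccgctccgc
Kat2b promoter, chr17:53566721-53567020, plus strand: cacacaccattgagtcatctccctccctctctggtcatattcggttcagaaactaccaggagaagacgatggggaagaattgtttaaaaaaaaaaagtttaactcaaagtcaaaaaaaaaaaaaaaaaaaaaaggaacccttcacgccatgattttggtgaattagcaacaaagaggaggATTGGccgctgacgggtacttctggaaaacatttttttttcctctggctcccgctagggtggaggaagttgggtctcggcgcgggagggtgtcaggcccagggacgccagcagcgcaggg
Smarcd2 promoter, chr11:106267583-106267882, minus strand: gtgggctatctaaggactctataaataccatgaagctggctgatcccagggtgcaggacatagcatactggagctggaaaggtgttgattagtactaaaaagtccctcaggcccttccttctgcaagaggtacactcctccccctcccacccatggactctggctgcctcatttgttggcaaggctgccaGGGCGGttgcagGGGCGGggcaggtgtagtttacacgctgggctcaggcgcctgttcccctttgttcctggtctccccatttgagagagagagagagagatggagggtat

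The Smarca4 window held 3 GC boxes and a GC content of 72.3%, and that of Smarca2 2 GC boxes and 65.7%. The Kat2a window held 1 E2F match and the Kat2b window 1 CCAAT box, at GC contents of 54.3% and 47%. Smarcd2 had 2 GC boxes and 55% GC. The GC box occurred in 64% of the 50 member promoters, against 57.1% of 8409 promoters of genes on the array and 35.7% of all 32851 promoters of the same length. For the CCAAT box these shares were 46%, 37.0% and 37.4%, and for the E2F site 8%, 3.52% and 2.27%. The response element was in 0 member promoters, 2.60% of promoters of array genes and 1.79% of all. E2F matches lay in 3 of 12 promoters of members counted as lower in the 12 h over 0 h comparison and in 0 of 12 promoters of those counted as higher. These promoters belong to 9 and 11 genes. Each listed start counts as a promoter, so 1 gene may be counted more than once. A match is a run of letters and does not show that a factor binds there.

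The arrays themselves differed, which bears on every ratio. Deposited signals had trimmed means of 93.7, 58.1 and 46.8 in order of time and were multiplied by 0.676, 1.09 and 1.36. The control probe sets for Gapdh gave 3' to 5' signal ratios of 0.828, 14.9 and 12.6 at 0, 12 and 24 h, and those for Actb 1.02, 11.9 and 2.97. The part of this shift in the ratios of the members was not tested. For genes measured by several probe sets, the log2 ratio of 1 set deviated from its gene's mean with an SD of 1.24 for 12 h over 0 h, 0.82 for 24 h over 12 h and 1.07 for 24 h over 0 h. A 2-fold ratio, a log2 ratio of 1, is therefore smaller than this SD for 12 h over 0 h and for 24 h over 0 h. The difference between 2 sets of a gene has a larger SD than the deviation of 1 set.

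The tissue was checked against marker genes. Of 12 epithelial markers, 10 exceeded the floor on some array, with Dsp, Perp and Krt8 the brightest, whereas the basal keratins Krt5 and Krt14 never did. Summed signals of the epithelial list were 858, 2495 and 1978 in order of time. Dsp (156 at 0 h, 739 at 12 h) and Perp (177 and 718) made up much of the rise at 12 h. Of 10 epithelial markers with a ratio for 12 h over 0 h, 5 were higher and 0 lower, beside 17.7% and 27.3% of all genes. The other 5 had log2 ratios below 0, down to -0.99. Mesenchymal transcripts were also present, with 10 of 10 measured markers above the floor somewhere and sums of 3523, 6535 and 7291. That list went both ways, with 4 markers higher and 4 lower for 12 h over 0 h and a median log2 ratio of -0.16. Red cell transcripts (5 markers, all above the floor at 0 h) summed to 6458, 1575 and 1496. Endothelial sums were 176, 457 and 352 over 6 markers. Of 9 leukocyte markers 5 were at the floor on all arrays, Ptprc among them, and the sums of 199, 165 and 340 followed Cd14 (74.2, 73.1 and 209), the brightest of them. The part of these other cells in the chromatin genes' ratios was not tested.

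After 12 h in culture the chromatin genes went both ways, as all genes did. Of 40 members with a ratio for 12 h over 0 h, 12 were counted as higher and 12 as lower, and the median log2 ratio was -0.02. Over all 6379 genes with a ratio, 17.7% were higher, 27.3% lower and 44.9% either, with a median of -0.21. The members' shares were 30% each way, so that their lower share was near that of all genes. Without scaling 4 members (9.76%) were higher and 18 (43.9%) lower, beside 9.06% and 44.8% of all genes, and with centring on the median 15 (37.5%) and 10 (25%), beside 26.2% and 18.4%. With quantile normalization 12 (30%) were higher and 11 (27.5%) lower, beside 21.9% and 20.9%. How the members stood to all genes thus depended on the scaling. Deacetylases 1, 3, 5 and 6, the SWI/SNF ATPase Smarca4, the polycomb protein Cbx2 and the architectural protein Hmga2 were on the lower side, and Hdac2, Smarca2, Kat2b and the nucleosome-binding Hmgn1 and Hmgn5 on the higher side. Without scaling Hmgn1, Hmgn5, Hmgb2, Chd1, Rbbp6, Rbbp7, Rbbp9 and Cbx6 fell under 2-fold, and centring brought Sin3a and Kat2a under it. The mean over probe sets did so for Dnmt1, Cbx6, Rbbp9 and Smarcd2, leaving out suffixed sets for Cbx6 and Smarcd2, and a floor at the 60th percentile for Smarcd1.

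Between 12 h and 24 h the higher members were 5 deacetylases, both Sin3 scaffolds, Smarca4, Smarcb1, Kat7, Ezh1 and Cbx2. Of 37 members with a ratio these were the 12 counted as higher, and 7 were lower, around a median log2 ratio of 0.14. The background was 18.8% higher, 12% lower and 30.8% either way among 6141 genes, with a median of 0.17. The members' shares were 32.4% and 18.9%. Without scaling 5 (13.51%) were higher and 9 (24.3%) lower, beside 12.0% and 18.5% of all genes. With centring 6 (16.2%) and 9 (24.3%) were called, beside 13.0% and 17.8% of all genes. With quantile normalization 7 and 7 (18.9% each) were called, beside 14.3% and 13.8%. Under each of these 3 settings Hdac7, Sin3b, Smarcb1, Kat7 and Ezh1 were no longer 2-fold higher, nor was Sin3a without scaling or with centring, nor Smarca4 without scaling. The mean over probe sets brought Cbx2, Kat7, Sin3b, Smarca4 and Smarcad1 under 2-fold, and a floor at the 60th percentile Hdac1, Hdac3, Ezh1 and Smarcad1. These ratios share the 12 h array with those above, so an extreme value on that array enters both in opposite directions.

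For 24 h over 0 h, of 40 members 4 were higher (Kat2b, Hmgn1, Rbbp7 and Smarcd2) and 10 lower (Hdac1, Hdac6, Smarca4, Smarca5, Smarcad1, Smarcd1, Rbbp4, Kat2a, Dnmt1 and Hmga2). The median log2 ratio was 0.15, against -0.08 over 6392 genes, of which 14.5% were higher, 17.7% lower and 32.1% either. The members' shares were 10% higher and 25% lower. Without scaling 2 (4.88%) were higher and 19 (46.3%) lower, beside 4.50% and 49.4% of all genes, so that the members' excess of lower genes was not seen there. With centring the counts were 6 (15%) and 7 (17.5%), beside 17.65% and 14.2% of all genes. With quantile normalization they were 5 (12.5%) and 7 (17.5%), beside 16.5% and 15.8%. Under both, the members' lower share was nearer to that of all genes than as reported. Of the single calls, Hmgn1 and Rbbp7 fell under 2-fold without scaling, Smarca5, Rbbp4 and Kat2a with centring or quantile normalization, and Dnmt1, Smarca4, Smarcad1 and Smarcd2 with the mean over probe sets. A floor at the 60th percentile brought Smarcd1 under 2-fold. In all, 32 of 40 members (80%) and 3806 of 6569 genes (57.9%) differed by 2-fold or more in some comparison. These 2 sets differ in signal level, since 36 of 40 members but 4682 of 6569 genes exceeded the floor on all arrays. The part of signal level in this gap was not tested.

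**Figure D1:**
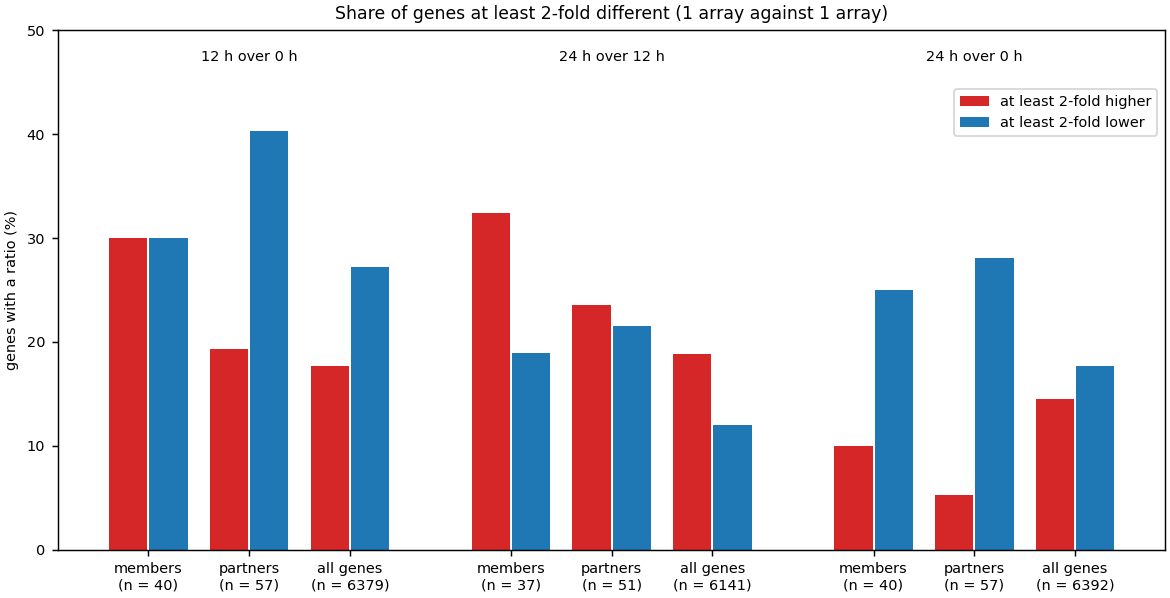
Share of genes with a ratio (y axis, percent, from 0) counted as higher (red) or lower (blue) by 2-fold or more in each comparison of 1 array with 1 array, for the members, a list of other chromatin genes (partners) and all genes. At 12 h the members' bars are equal at 30% each, and for 24 h over 0 h their lower bar (25%) exceeds their higher bar (10%).

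Among the deacetylases, 5 of 6 had their lowest signal at 12 h, as did 41.9% of the 4682 genes above the floor on all arrays. Hdac1 and Hdac2 are the paralogous class I enzymes of the Sin3, NuRD and CoREST corepressor complexes, and their signals went opposite ways. Hdac1 had signals of 159, 21.9 and 69.0 at the 3 times, making it 7.23-fold lower at 12 h than at 0 h, then 3.15-fold higher at 24 h, which left it 2.30-fold lower than at 0 h. Hdac2 had signals of 374, 1229 and 467, that is 3.28-fold higher at 12 h, 2.63-fold lower from 12 h to 24 h and 1.25-fold higher at 24 h than at 0 h. The 12 h array was thus the lowest for Hdac1 and the highest for Hdac2. The difference between the log2 ratios of Hdac2 and Hdac1 was 4.57 for 12 h over 0 h and 1.52 for 24 h over 0 h.

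The other 4 deacetylases resembled Hdac1. Hdac3, the catalytic subunit of the NCoR and SMRT complexes, had signals of 80.1, 15.4 and 41.9 at 0, 12 and 24 h, so that its 12 h value was just above the floor and 5.21-fold under that of 0 h. Hdac6, a cytoplasmic deacetylase of tubulin, had signals of 239, 40.8 and 103. It was 5.85-fold lower at 12 h and 2.32-fold lower at 24 h than at 0 h. The class IIa enzymes Hdac5 and Hdac7, which act as signal-responsive corepressors, had signals of 156, 55.2 and 152 and of 146, 73.7 and 159. Hdac5 was 2.83-fold lower at 12 h, whereas Hdac7, at 1.97-fold lower, fell just short of 2-fold. At 24 h Hdac5 and Hdac7 were within 1.10-fold of their 0 h signals, but unscaled values gave log2 ratios of -1.04 and -0.87 there.

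For 12 h over 0 h, 4 of 6 deacetylases were thus lower and 1 higher, and for 24 h over 12 h, 5 of 6 were higher (3 with a floor at the 60th percentile, and 4 without scaling, with centring or with quantile normalization) and 1 lower. Over all genes 27.3% were lower and 17.7% higher in the first of these comparisons, and 18.8% higher and 12% lower in the second. The family's median log2 ratios were -1.94 for 12 h over 0 h, 1.39 for 24 h over 12 h and -0.49 for 24 h over 0 h. Under values without scaling, centring on the median and quantile normalization the first median was -2.63, -1.49 and -1.57. Each deacetylase was measured by 1 probe set.

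**Figure D2:**
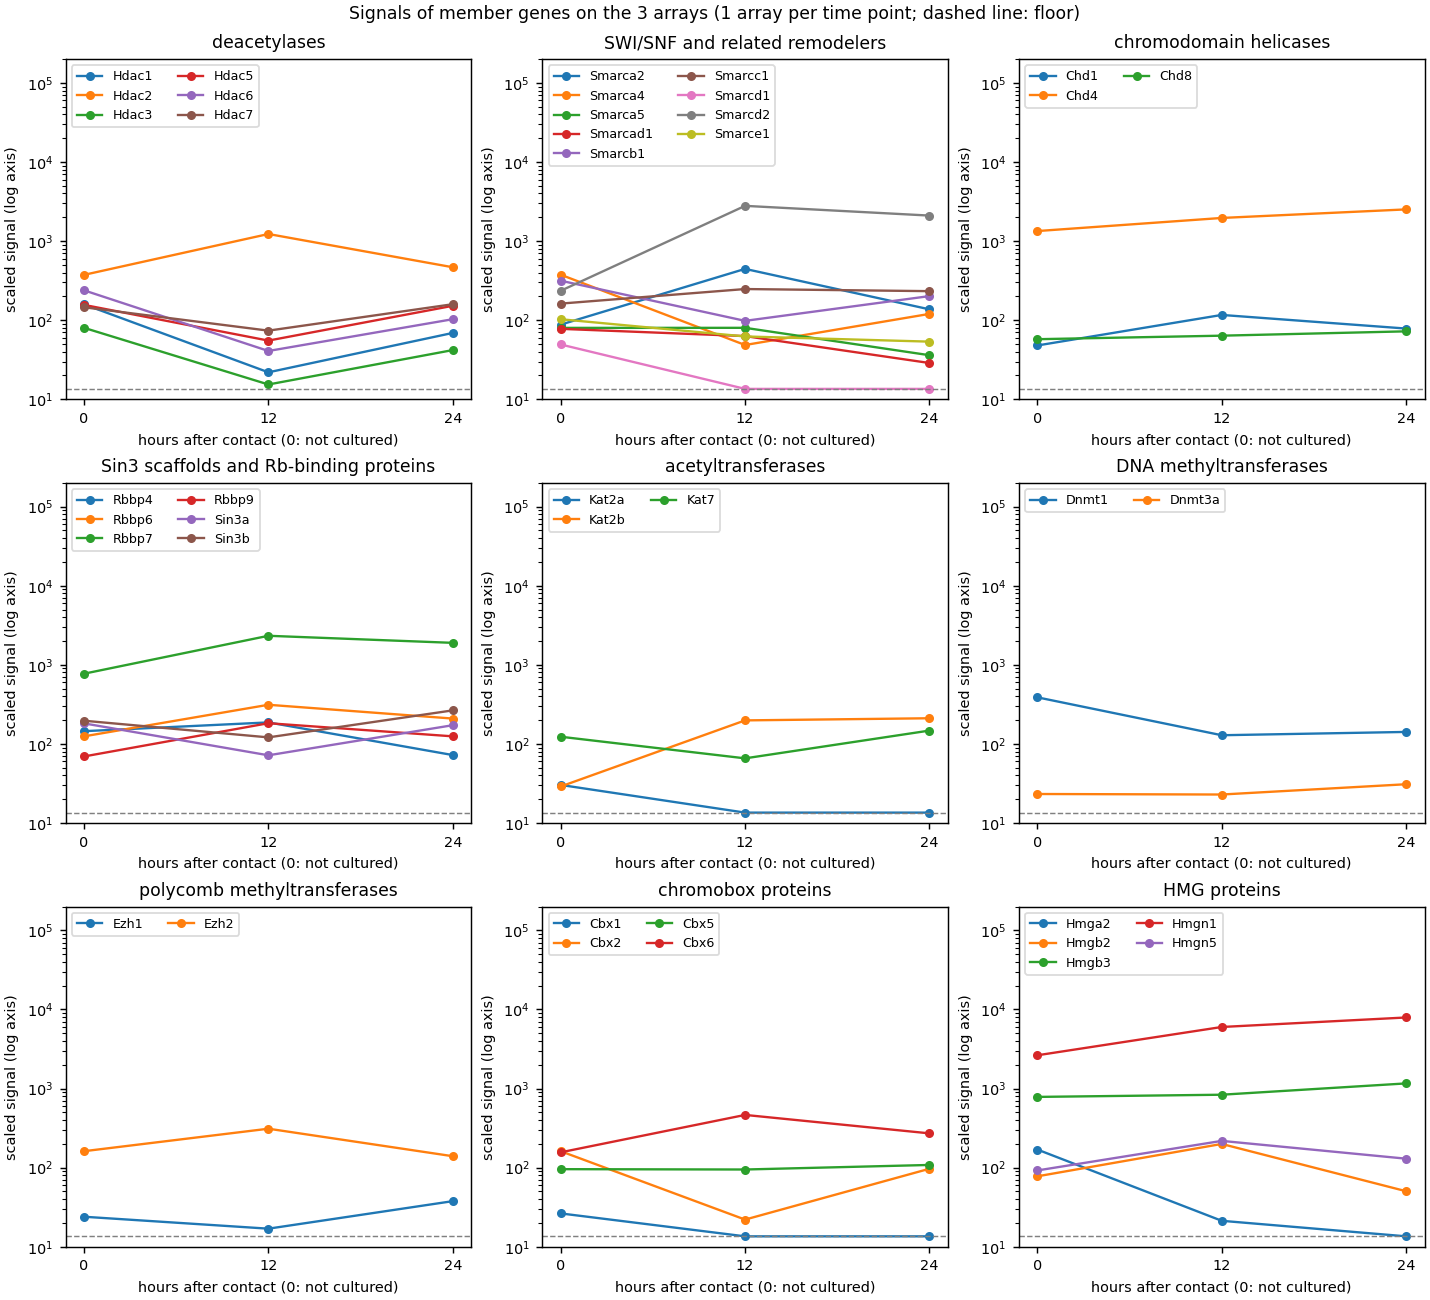
Scaled signal (log y axis) of the 40 members above the floor on at least 1 array against time (x axis, hours; 0 h was not cultured), 1 panel per family, 1 line per gene by its brightest probe set, with values under the floor drawn at the floor (dashed, 13.53). Hdac2 peaks at 12 h, where the other 5 deacetylases are at their lowest, and Smarca4 and Smarca2 cross.

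Among the SWI/SNF remodelers the alternative ATPases crossed. Smarca4, also known as Brg1, had signals of 376, 48.5 and 120. It was 7.74-fold lower at 12 h and 3.13-fold lower at 24 h than at 0 h, and 2.48-fold higher at 24 h than at 12 h. Smarca2, also known as Brm, had signals of 87.8, 445 and 137, which made it 5.07-fold higher at 12 h, 3.25-fold lower from 12 h to 24 h and 1.56-fold higher at 24 h than at 0 h. The log2 ratio of Smarca2 exceeded that of Smarca4 by 5.29 for 12 h over 0 h and by 2.29 for 24 h over 0 h. The other probe set of Smarca4 was at the floor on all arrays.

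The core subunits of the complex did not move alike. Smarcb1, the SNF5 subunit, had signals of 316, 98.1 and 202 and was 3.22-fold lower at 12 h than at 0 h. Smarcc1, a scaffold subunit also called BAF155, had signals of 162, 248 and 233, within 1.53-fold of its 0 h value on the later arrays. Smarce1, the HMG-box subunit BAF57, had signals of 103, 62.3 and 53.6, reaching 1.92-fold lower at 24 h. Smarcb1 was the only one of these 3 with a ratio of 2-fold or more.

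The alternative subunits Smarcd1 and Smarcd2 (BAF60A and BAF60B) pointed opposite ways, but the value of Smarcd2 rests on 1 probe set. Smarcd1 had a signal of 49.3 at 0 h and was under the floor on both cultured arrays, so it was at least 3.65-fold lower there. The brightest set of Smarcd2 had signals of 235, 2789 and 2101, giving 11.9-fold higher at 12 h and 8.93-fold higher at 24 h. Its suffix marks possible cross-hybridization. Another such set gave 54.0, 89.2 and 64.8, a set of a further suffix class 85.3 at 0 h, a value under the floor at 12 h and 34.98 at 24 h, and the set without a suffix was above the floor at 12 h alone, at 18.1. The log2 ratios of Smarcd2 for 24 h over 0 h thus ran from -1.29 to 3.16 over 3 sets.

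The ISWI ATPase Smarca5 (SNF2H), which spaces nucleosomes, was level between 0 h and 12 h (79.9 and 80.1) and lower at 24 h (36.1). It was 2.22-fold lower at 24 h than at 0 h, and its other probe set gave 2.49-fold lower. Smarcad1, a remodeler linked with silent chromatin after replication, had signals of 77.7, 62.9 and 28.7, or 2.70-fold lower at 24 h than at 0 h. Its other set, with 52.5, 23.2 and 48.7, had its lowest value at 12 h and was 1.08-fold lower at 24 h. Of 9 genes of the Smarc family, 2 were higher and 3 lower for 12 h over 0 h, and 1 and 4 for 24 h over 0 h, beside 17.7% and 27.3%, and 14.5% and 17.7%, of all genes. At 12 h these shares of the family (22.2% and 33.3%) are near those of all genes. Smarca5 thus had the same direction from both sets for 24 h over 0 h, while Smarcad1 was 2-fold lower by its brighter set alone.

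Of the 5 CHD remodelers 3 had a ratio. Chd1, which acts at transcribed genes, had signals of 47.9, 117 and 78.4 and was 2.43-fold higher at 12 h than at 0 h. Chd4, the ATPase of the NuRD complex, had signals of 1339, 1961 and 2516, 1.88-fold higher at 24 h than at 0 h, from a probe set whose suffix marks possible cross-hybridization. Chd8, a regulator of beta-catenin target genes, stayed between 57.5 and 72.3. The 3 genes had ratios above 1 in both comparisons with 0 h, and 1 of these 6 ratios reached 2-fold. Without scaling Chd4 and Chd8 were lower at 12 h than at 0 h (log2 ratios of -0.14 and -0.54), and for 24 h over 0 h all 3 turned, with -0.29 for Chd1, -0.09 for Chd4 and -0.67 for Chd8.

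**Figure D3:**
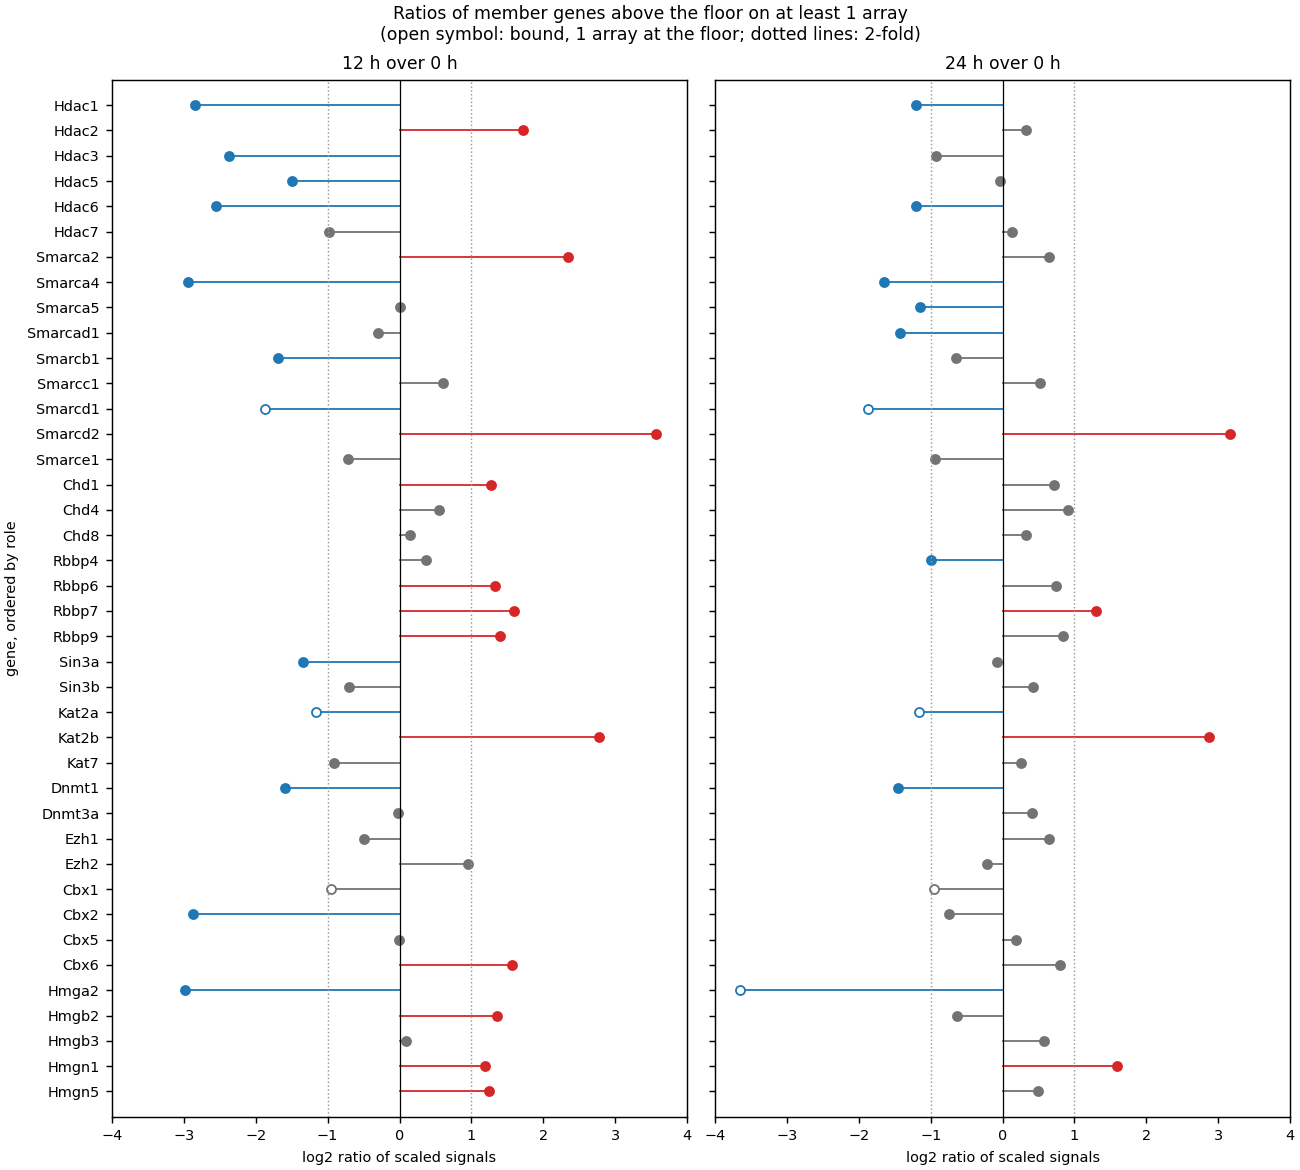
Log2 ratio of scaled signals (x axis) of each of the 40 members above the floor on at least 1 array, for 12 h over 0 h (left) and 24 h over 0 h (right), with red for 2-fold or more upward, blue for 2-fold or more downward, grey for smaller ratios, and open symbols for bounds. At 12 h, 12 genes are red and 12 blue, and at 24 h 4 are red and 10 blue.

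The Sin3 scaffolds, which carry deacetylases, were lowest at 12 h. Sin3a, on which the Sin3 complex is built, had signals of 182, 71.8 and 172, so it was 2.53-fold lower at 12 h than at 0 h and 2.40-fold higher at 24 h than at 12 h. Its paralogue Sin3b had signals of 196, 121 and 266, 1.62-fold lower at 12 h and 2.20-fold higher from 12 h to 24 h. For 24 h over 0 h both were within 1.36-fold, but without scaling the log2 ratios were -1.08 for Sin3a and -0.57 for Sin3b.

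The histone-binding proteins Rbbp4 and Rbbp7, shared by the Sin3, NuRD and polycomb repressive 2 complexes, ended apart. Rbbp4 had signals of 145, 187 and 72.3, which put it 2.59-fold lower at 24 h than at 12 h and 2.004-fold lower than at 0 h, at the threshold itself. Rbbp7 had signals of 772, 2328 and 1895, making it 3.02-fold higher at 12 h and 2.46-fold higher at 24 h than at 0 h. Rbbp6, a ubiquitin ligase that binds the retinoblastoma protein, had signals of 125, 312 and 209. Its other set above the floor on all arrays gave 24.6, 56.1 and 23.2, so its 12 h value was the highest by both sets. Rbbp9, a serine hydrolase, had 69.4, 183 and 125 by its brightest set, 2.63-fold higher at 12 h, but another set was 29.4 at 0 h and at the floor later, at least 2.17-fold lower. Rbbp9 therefore had opposite directions by its sets.

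Paralogues also parted among the acetyltransferases. Kat2a (GCN5) and Kat2b (PCAF) are alternative catalytic subunits of the SAGA and ATAC coactivator complexes. Kat2a had a signal of 30.3 at 0 h and was under the floor in culture, at least 2.24-fold lower, a bound that fell under 2-fold with centring or quantile normalization. Kat2b had signals of 28.9, 198 and 211, or 6.85-fold and 7.29-fold higher at 12 h and 24 h than at 0 h, and in contrast to Hdac2 and Smarca2 its signal was as high at 24 h as at 12 h. The other Kat2b set was at the floor on all arrays. Kat7 (HBO1), which acetylates histones at replication origins, had signals of 123, 65.7 and 147. It was 2.24-fold higher at 24 h than at 12 h, where its other set gave 1.31-fold.

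Dnmt1, which copies methylation onto newly made DNA, had signals of 388, 129 and 142. The gene was 3.01-fold lower at 12 h and 2.74-fold lower at 24 h than at 0 h. Its other set was under the floor at 0 h and 12 h and at 19.2 at 24 h, a bound in the opposite direction. Dnmt3a, which sets new methylation, had signals of 23.3, 22.9 and 30.9, and its largest ratio was 1.35-fold. Proliferation markers (11 of 12 listed genes, found among the probe sets that name 1 gene) had summed signals of 2737, 2487 and 1936. For 24 h over 0 h 4 of 10 with a ratio were lower (Mcm2, Mcm4, Mcm5 and Mcm7) and 0 higher, beside 17.7% and 14.5% of all genes. For 12 h over 0 h 4 were lower and 1, Pcna, higher, beside 27.3% and 17.7% of all genes. The part of proliferation in the Dnmt1 ratio was not tested.

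The polycomb methyltransferases had ratios of opposite sign. Ezh2, the main enzyme of polycomb repressive complex 2 in dividing cells, had signals of 161, 310 and 139, 1.93-fold higher at 12 h and from there 2.23-fold lower at 24 h. Ezh1, its counterpart in resting cells, had signals of 23.9, 16.9 and 37.7, the 12 h value near the floor of 13.53. Its log2 ratio for 12 h over 0 h was -0.50. Ezh1 was 2.23-fold higher at 24 h than at 12 h. That ratio was under 2-fold without scaling, with centring, with quantile normalization and with a floor at the 60th percentile. For 24 h over 0 h the log2 ratios were -0.21 for Ezh2 and 0.65 for Ezh1, both under 2-fold, and without scaling both were negative (-1.21 and -0.35).

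Chromobox proteins read methylated histones. Cbx2, of polycomb repressive complex 1, had signals of 161, 22.0 and 96.8 by its brightest set, or 7.32-fold lower at 12 h than at 0 h and 4.39-fold higher at 24 h than at 12 h. Its other set gave 32.6, 18.3 and 14.1, also lower at 12 h (1.78-fold) but lower again at 24 h. Cbx6, of the same complex, had 156, 464 and 271 by its brightest set and 46.1, 29.3 and 78.2 by its other set, opposite in direction at 12 h and within 1.74-fold higher by both at 24 h. Of the heterochromatin protein genes, Cbx1 was at 26.4 at 0 h and under the floor later, and the brightest set of Cbx5 stayed between 94.7 and 108 while its other set went from 172 to under the floor and then 28.5. For the chromobox family the ratio therefore depended on which probe set was read.

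**Figure D4:**
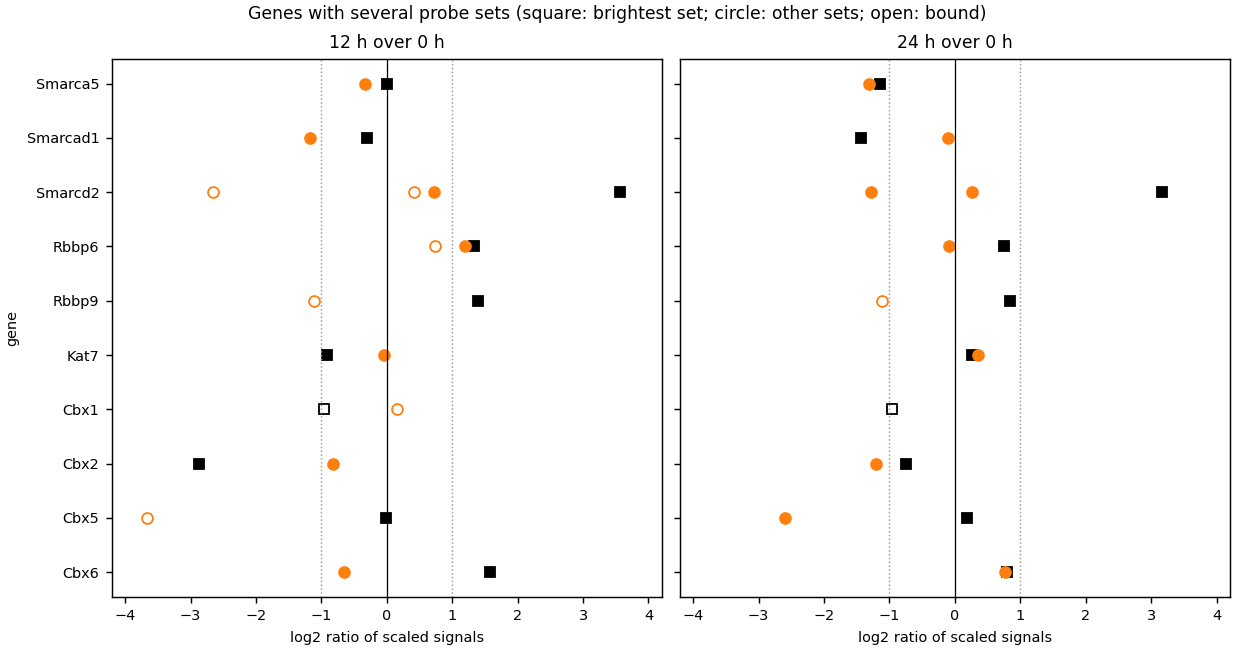
Log2 ratio of scaled signals (x axis) for every probe set with a ratio, in the 10 members for which several sets have a ratio at 12 h over 0 h, for 12 h over 0 h (left) and 24 h over 0 h (right). Black squares are the brightest set of a gene, orange circles its other sets and open symbols bounds; at 12 h the sets of Cbx6, Rbbp9, Smarcd2 and Cbx1 lie on both sides of 0.

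HMG proteins differed from each other. Hmga2, an architectural protein of embryonic and mesenchymal cells, had signals of 169 and 21.3 on the first arrays and was under the floor on the last. It was 7.96-fold lower at 12 h and at least 12.5-fold lower at 24 h than at 0 h, a log2 ratio of -3.65 or lower. Mesenchymal markers, whose sums are given above, had 3 of 10 higher and 3 lower for 24 h over 0 h, beside 14.5% and 17.7% of all genes. The part of mesenchymal cells in the Hmga2 ratio was not tested.

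Hmgn1, a nucleosome-binding protein that loosens chromatin, had signals of 2632, 5999 and 7912, which is 2.28-fold higher at 12 h and 3.01-fold higher at 24 h than at 0 h. Hmgn5, of the same family, had 92.1, 218 and 130, 2.36-fold higher at 12 h and 1.41-fold at 24 h. Hmgb2, a DNA-bending protein of dividing cells, had 77.6, 199 and 50.3, so it was 2.57-fold higher at 12 h and then 3.96-fold lower at 24 h. Its probe set has a suffix that marks possible cross-hybridization or few usable probes. Hmgb3 lay between 784 and 1161, and its ratios stayed under 1.49-fold. Without scaling Hmgn1, Hmgn5 and Hmgb2 were under 2-fold at 12 h, and Hmgn1 also at 24 h.

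Order over time differed among the 36 members that exceeded the floor throughout. The highest signal fell at 0 h in 11 of them, at 12 h in 14 and at 24 h in 11, against 39.2%, 31.5% and 29.4% of 4682 such genes overall (30.6%, 38.9% and 30.6% of the members). The lowest signal fell at 0 h in 15 members, at 12 h in 15 and at 24 h in 6, or 41.7%, 41.7% and 16.7%, against 33.6%, 41.9% and 24.5% of all such genes. Scaling sets this order for genes whose ratios are near 1.

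Partner genes outside the member families were read from a list of 93, of which 63 were found among the probe sets that name 1 gene. For 12 h over 0 h 11 of 57 with a ratio were higher and 23 lower, around a median log2 ratio of -0.61, or 19.3% and 40.4% beside 17.7% and 27.3% of all genes. For 24 h over 12 h the counts were 12 and 11 of 51 (23.5% and 21.6%, beside 18.8% and 12%), with a median of 0.27. For 24 h over 0 h they were 3 and 16 of 57, with a median of -0.36. These are 5.26% and 28.1%, beside 14.5% and 17.7% of all genes. The partner counts are given for the reported scaling alone, and the shares of members and of all genes shifted with the scaling.

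The partners counted as higher for 24 h over 0 h were Suz12, a core subunit of polycomb repressive complex 2, the histone chaperone Asf1a and Gadd45a, a stress-induced gene linked with DNA demethylation. Suz12 had signals of 33.4, 99.0 and 135 (4.03-fold higher), Asf1a 132, 851 and 264 (2.01-fold) and Gadd45a 34.2, 103 and 68.9 (2.01-fold). Of the lower ones, Uhrf1, which recruits Dnmt1 to newly replicated DNA, had signals of 245, 44.4 and 49.4, or 4.96-fold lower at 24 h, the same order over time as Dnmt1 itself. Ehmt2, a histone methyltransferase also called G9a, had 272, 15.1 and 62.0 (4.39-fold lower), and the histone variant gene H2ax 642, 95.1 and 178 (3.60-fold lower).

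By function, the partners are few in each group, and their counts are read beside the shares of all genes just given. Partners from deacetylase complexes and sirtuins had 1 higher and 4 lower of 11 for 12 h over 0 h, 5 and 1 of 11 for 24 h over 12 h, and 0 and 2 of 11 for 24 h over 0 h. In the same order, partners of SWI/SNF, ISWI and related remodelers had 1 and 6, 1 and 1, and 0 and 3 of 10. Polycomb and heterochromatin partners had 4 and 5 of 12, 5 and 4 of 11, and 1 and 2 of 12. The share of lower genes was thus 60% (6 of 10) in the remodeler group at 12 h against 36.4% (4 of 11) in the deacetylase group. Histone chaperones and variants had 2 and 4, 0 and 4, and 1 and 6 of 13. Methyl-DNA binding and maintenance genes had 1 and 2 of 5, 0 and 0 of 2, and 1 and 2 of 5. Acetyltransferases and readers had 2 and 2 of 6, 1 and 1 of 4, and 0 and 1 of 6.

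Gene span, the distance from start to end of the annotated gene, was compared because it differed with direction over all genes. Members counted as lower for 12 h over 0 h had a median span of 25.7 kb (12 genes) and those counted as higher 14.6 kb (12 genes). Over all genes the order was the reverse, with 15.3 kb for 1736 lower genes that had a span and 26.8 kb for 1128 higher ones. For 24 h over 0 h the orders also differed, with 33.9 kb for 10 lower and 14.3 kb for 4 higher members, against 16 and 23.2 kb over all genes. For 24 h over 12 h they did not, with 39.5 kb for 7 lower and 34.7 kb for 12 higher members, against 25.1 and 15.6 kb. For 12 h over 0 h promoter GC content was close in the member groups. Its medians were 60.7% for 12 promoters of the lower members and 63.8% for 12 promoters of the higher members.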

How the data were processed

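RNA from 3 samples (0, 12 and 24 h) was measured on 1-colour Affymetrix arrays. The deposited values are linear intensity, 1 signal per probe set. Per the labels' protocols RNA was amplified with RiboAmp and labelled with an ENZO kit, and Microarray Suite 5.0 and GeneSpring 6.0 served the analysis. The labels do not state which of them wrote the values or whether these were scaled. Of 12488 probe sets 66 were controls, and of the rest 10833 named 1 gene, 396 several and 1193 none in the platform annotation.

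Arrays were scaled to the geometric mean of their 2% trimmed means, floored at the pooled 40th percentile (13.53) and taken to log2. A gene was read from its probe set of highest mean signal. Since each time has a single array, nothing was tested, and differences were described by a 2-fold rule (SciPy 1.17.1, pandas 2.3.3, Python 3.11.15). The procedure was tested on simulated data without noise, with 1 probe set per gene and a lower floor. That does not measure the error of 2-fold calls in these arrays. Any member could be named. Partner genes were named by the largest measured ratios for 24 h over 0 h, up to 3 each way. Members and lists were chosen with earlier results of these data known, and paralogue pairs after their values were seen. The 8 alternatives were unscaled values, centring on the median, quantile normalization, floors at the 20th and the 60th percentile, the mean over probe sets, suffixed probe sets left out, and scaling and floor from the 2 compared arrays. Gene symbols came from RefSeq, matched for 10817 probe sets.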

Additional observations from a re-analysis of the deposited data

How the results depend on the processing

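Of 57 member ratios of 2-fold or more, 1 changed sign under any of 8 alternatives: Cbx6 at 12 h over 0 h was -0.65 (log2) with suffixed probe sets left out, since that removes its brightest set. A change of floor cannot reverse a ratio, and scaling from the 2 compared arrays leaves the measured ratio of a probe set as it was. The mean over probe sets and leaving out suffixed sets change nothing for a gene with 1 unsuffixed set, such as Hdac1, Hdac6 or Hmga2. Fewer than 8 alternatives therefore bear on the sign of such a gene. The counts and medians depended on the scaling. With signals left unscaled, members at least 2-fold higher numbered 4 for 12 h over 0 h, 5 for 24 h over 12 h and 2 for 24 h over 0 h, 19 were lower in the last, and the medians were -0.70, -0.18 and -0.83, beside -0.83, -0.12 and -0.98 over all genes. Centring on the median gave 6 higher members for 24 h over 12 h, medians of 0.43 for 12 h over 0 h and -0.15 for 24 h over 12 h, and quantile normalization 7 higher and a median of 0.06 at 12 h over 0 h. That median was 0.05 with a floor at the 60th percentile, -0.26 with the mean over probe sets and -0.30 without suffixed sets. The mean over probe sets gave -0.06 for 24 h over 0 h. The upward share of 2-fold members in the 3 comparisons was 50%, 63.2% and 28.6% as reported, 18.2%, 35.7% and 9.52% unscaled, 60%, 40% and 46.2% after centring and 52.2%, 50% and 41.7% after quantile normalization. Among all genes called 2-fold, the upward shares were 39.3%, 61.1% and 45.0% as reported and 16.8%, 39.4% and 8.36% unscaled. Median centring gave 58.7%, 42.1% and 55.5% for all genes, and quantile normalization 51.1%, 50.9% and 51.1%. The shares of all genes thus shifted with the setting as well. The other member counts stayed within 1.5 times those reported. Kat2b, Hdac1, Hdac6 and Hmga2 kept a ratio of at least 2-fold in the same direction for 12 h over 0 h and for 24 h over 0 h under all 8 alternatives, and Hdac2, Hdac3, Hdac5, Smarca2, Smarca4, Smarcb1 and Cbx2 did so for 12 h over 0 h. Smarcd2 had a log2 ratio of 0.53 for 24 h over 0 h with the mean over probe sets. Below the floor a level is unknown, so ratios against it are bounds. No paired analysis was possible because each time point has 1 array.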
